A study of Mus musculus with 33 samples.

Results

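Ovaries of mice that lack Fshb and carry a human FSHB transgene (the rescue) were compared with ovaries of mice that lack Fshb and carry no transgene. The comparison rests on 8 of the 33 ovary RNA libraries of the series, all from its experiment 2: the 4 titled R, with the genotype Fshb(-/-) HFSHB, and the 4 titled KO, with the genotype Fshb(-/-). The libraries were chosen by title and genotype, and no measured value entered that choice. Of 54347 gene identifiers in the deposited table, 16871 had enough counts in these libraries to be tested. The whole series measured polyadenylated ovary RNA in 3 experiments, and experiment 1, with 3 libraries each of WT, Fshb(+/-) and Fshb(-/-), is used here for comparison of WT with Fshb(-/-). Its Fshb(+/-) libraries entered the fits for the estimate of spread.

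The loss of mouse Fshb is common to both groups, so the transgene is the named difference between them. The genotype label reads HFSHB, the series' design text writes HFshb (+/+) and the protocol writes HFSHB +. The estrous stage is given as NA for all 8 libraries, and the letters NS in their titles are not explained. The promoter that drives the transgene, the age of the mice and their strain are not stated in the labels. The labels also do not say whether each library came from a separate mouse, so p-values measure only the spread between these libraries, which may be technical.

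FSH is a pituitary hormone made of an alpha subunit, encoded by Cga, and the beta subunit encoded by Fshb. It acts on granulosa cells through the receptor Fshr, which raises cAMP, and it drives follicles past the small growing stage, induces the aromatase Cyp19a1 and inhibin subunits, and equips granulosa cells with the LH receptor Lhcgr. Female mice without Fshb are known to hold follicles that stop before the antral stage and to form no corpora lutea, the progesterone-secreting bodies left by ovulated follicles.

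Total counts ran from 19633256 to 23700051 per library, and 22896 to 24064 genes had a count of 1 or more. Levels below are counts scaled to library size with TMM factors (CPM), and a gene is called when its adjusted p is below 0.05. The rescue libraries fell into pairs. Replicates 1 and 2 correlated at 0.989 and replicates 3 and 4 at 0.995 in log2 CPM, against 0.973 to 0.980 between the pairs, while the Fshb(-/-) libraries correlated at 0.985 to 0.993 with one another. Results that rest on one pair are therefore also given without it, an alternative added after the data were seen. The pairs were defined by these same values, so p-values and calls without a pair only describe the libraries and are no independent test. Signal of neighbouring tissue varied by library in both groups. Ovgp1, the oviduct glycoprotein, had 4663 and 2208 counts in Fshb(-/-) replicates 3 and 4 and 9384 in rescue replicate 2, but 47 to 82 in the other 5 libraries. The fat marker Adipoq was highest in Fshb(-/-) replicate 2, with 231 counts. The ovary's defining markers Gdf9, Zp3, Foxl2, Amh and Cyp17a1 were abundant in every library. Of the pituitary markers, Cga and Lhb summed to 2 counts and 1 count over all 8 libraries.

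The 2 groups differed across much of the transcriptome. Of the 16871 genes tested, 5390 (31.9%) were called: 2659 higher in the rescue (15.8%) and 2731 lower (16.2%). A change of at least 2-fold was reached by 1403 of them (8.32%), 734 higher (4.35%) and 669 lower (3.97%). In 34.3% of all genes tested the groups did not overlap. List counts given below are to be read beside these shares. The lists share members, such as Inhba and Sult1e1, so counts of different lists are not independent of each other. The number of genes called was 4264 without rescue replicates 3 and 4 and 7283 without replicates 1 and 2. No gene called in either of these fits and in the fit of all 8 libraries changed direction between them. Ovaries were measured whole, and levels are shares of a library. Fewer cells of a type, less RNA per cell and more RNA from other cells therefore cannot be told apart in any result below.

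**Figure D1:**
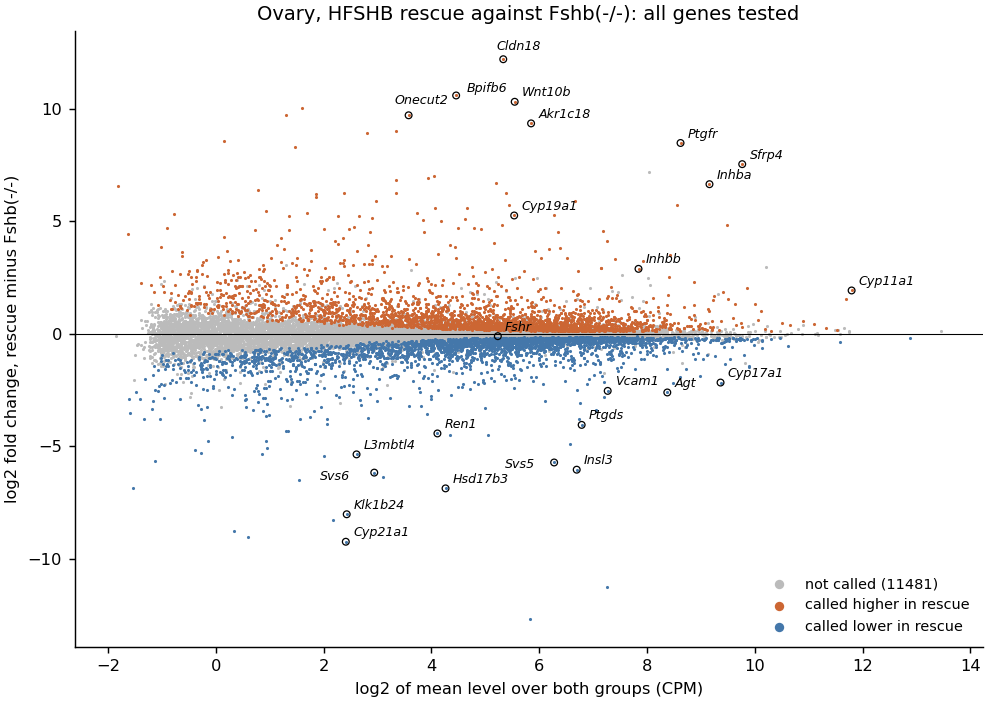
Log2 fold change (rescue minus Fshb(-/-)) against the log2 of the mean level over both groups in CPM, 1 point a gene, for the 16871 genes tested, with called genes in colour and a selection of the named genes circled. The figure shows 2659 genes called higher and 2731 called lower, and the circled genes run from Cyp21a1 at -9.23 to Cldn18 at 12.20.

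The targeted gene was read first. Fshb had 169, 184, 176 and 119 counts in the Fshb(-/-) libraries and 221, 270, 370 and 431 in the rescue. The groups did not overlap, and the rescue was higher by 1.09 ± 0.24 on the log2 scale (adjusted p = 0.01). Counts per gene cannot tell transcripts of the human transgene from those of the disrupted mouse allele, so this difference does not check the transgene by itself. In experiment 1 the WT libraries held 0 to 0.0617 CPM (of total counts) of Fshb and the Fshb(-/-) libraries 4.13 to 5.81 CPM, but the Fshb(+/-) libraries held 2.63 to 6.71 CPM, which overlaps the Fshb(-/-) range (locus chr2:107056140-107059656, GRCm38). Libraries of experiment 3 labelled WT and titled DE, PE or E held 0 to 15 CPM, so reads of this locus did not follow the genotype labels across the series. The receptor Fshr stood at 35.1, 38.7, 41.7 and 39.8 CPM in the Fshb(-/-) libraries and 48.1, 42.8, 22.5 and 31.7 CPM in the rescue, with overlapping groups and no call (log2 fold change -0.10 ± 0.21, adjusted p = 0.76). Its sign turned to 0.23 without rescue replicates 3 and 4 and was -0.52 without replicates 1 and 2 (adjusted p = 0.016).

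Among the ovary's own hormones, the activin and inhibin beta subunits showed the clearest rise. Inhba, the beta A subunit, stood at 19.1, 6.67, 10.4 and 8.95 CPM in the Fshb(-/-) libraries and 1152, 1348, 873 and 1150 CPM in the rescue. Every rescue library was far above every Fshb(-/-) library, a fitted difference of 101-fold (log2 fold change 6.65 ± 0.38, adjusted p = 3.5e-05). Inhbb, the beta B subunit, rose from 46.8, 35.9, 65.7 and 69.7 CPM to 370, 389, 387 and 468 CPM (log2 fold change 2.89 ± 0.22, adjusted p = 9.4e-05). Inha, the alpha subunit they share in inhibin, was not called: it stood at 959 to 1183 CPM and 1041 to 1601 CPM, and the groups overlapped (log2 fold change 0.33 ± 0.14, adjusted p = 0.096, and 0.54 with adjusted p = 0.009 without rescue replicates 3 and 4). DESeq2 did call Inha (log2 fold change 0.34, adjusted p = 0.038). Fst, which binds and blocks activin, rose by 0.57 ± 0.09 (adjusted p = 0.0013), from 134 to 156 CPM up to 179 to 233 CPM. Of the receptors named by rule, Tgfbr3, the inhibin co-receptor betaglycan, fell by 0.78 on the log2 scale, from 292 to 345 CPM down to 156 to 219 CPM, and Acvr2b, an activin receptor, fell by 0.41. In all, 4 of 9 tested members of the inhibin, activin and follistatin list were higher and 3 lower, with a median log2 fold change of 0.31 (0.14 without rescue replicates 3 and 4) beside 0.00 over all genes tested.

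Amh, the hormone of small growing follicles that holds back further recruitment, fell. It stood at 485, 554, 399 and 525 CPM in the Fshb(-/-) libraries and 237, 180, 131 and 119 CPM in the rescue. The groups were well apart (log2 fold change -1.56, adjusted p = 0.002), and its receptor Amhr2 fell by 0.79 ± 0.10 (adjusted p = 0.00054). Of 15 tested genes of small growing follicles, 9 were lower and 2 higher, with a median of -0.46. Igf1 fell by 1.12 and its receptor Igf1r by 0.40. Gatm, the first enzyme of creatine synthesis, fell by 1.32, and Wt1, a transcription factor of the gonadal mesenchyme and early granulosa cells, by 0.95. Nppc, whose peptide CNP keeps oocytes in meiotic arrest, was one of the 2 that rose, from 1.07 to 1.64 CPM up to 6.56 to 8.61 CPM (log2 fold change 2.44 ± 0.18, adjusted p = 3e-05).

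**Figure D2:**
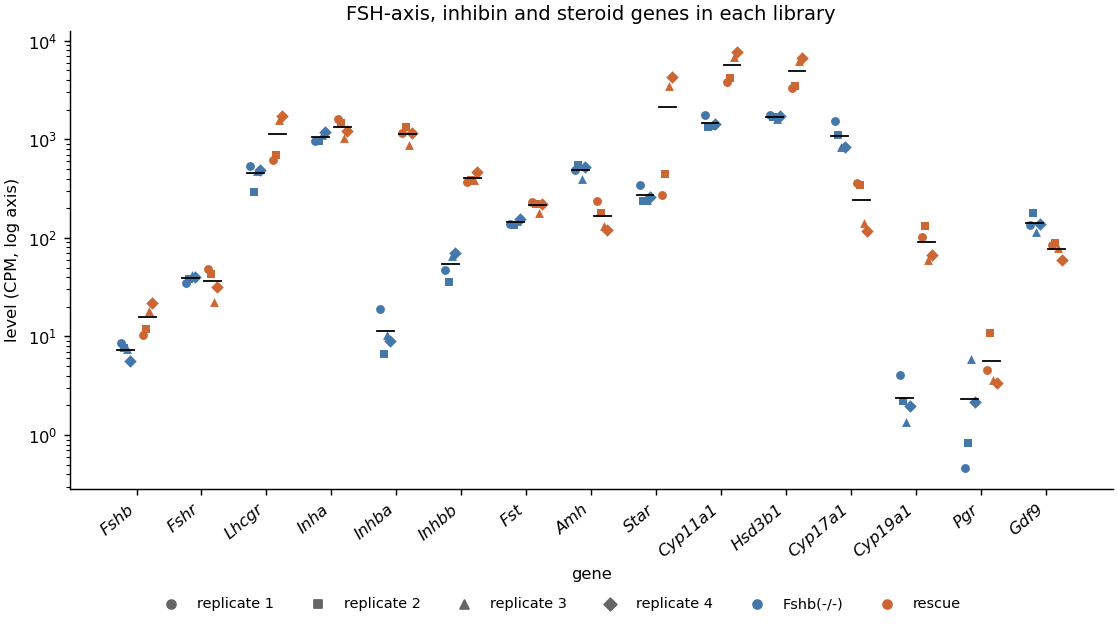
Levels in CPM on a log axis of 15 genes of the FSH axis, inhibins and steroid synthesis in each of the 8 libraries, with a marker shape for each replicate number and a bar for the group mean. Inhba, Inhbb and Cyp19a1 separate the groups widely, Fshr and Inha overlap, and Star, Lhcgr and Cyp11a1 split the rescue libraries into replicates 1 and 2 and the higher replicates 3 and 4.

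Of 22 tested genes of steroidogenesis, 12 were higher and 4 lower, with a median of 0.95. Without rescue replicates 3 and 4, 13 were higher and 5 lower, with a median of 0.53. Cyp19a1, the aromatase that makes estrogen from androgen, stood at 4.02, 2.19, 1.35 and 1.96 CPM in the Fshb(-/-) libraries and 102, 133, 59.6 and 66.8 CPM in the rescue. No library came near the other group (log2 fold change 5.26 ± 0.41, adjusted p = 0.00013). Cyp11a1, which cleaves the cholesterol side chain as the entry into steroid synthesis, rose from 1759, 1328, 1384 and 1435 CPM to 3778, 4173, 6883 and 7682 CPM (log2 fold change 1.93 ± 0.25, adjusted p = 0.0011). Its electron donors rose with it, Fdx1 by 1.28 ± 0.15 and Fdxr by 1.20 ± 0.07. Hsd3b1, which makes progesterone and has close copies that can share reads, rose by 1.54 ± 0.24 (adjusted p = 0.0026). Hsd17b1, which turns estrone into estradiol, rose from 77.1 to 98.0 CPM up to 138 to 163 CPM (log2 fold change 0.81 ± 0.08).

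Cyp17a1, the theca enzyme that makes androgens, stood at 1528, 1115, 830 and 831 CPM in the Fshb(-/-) libraries and at 363, 342, 141 and 118 CPM in the rescue. It was lower in every rescue library (log2 fold change -2.16 ± 0.44, adjusted p = 0.01), although the call was lost with the spread shared by experiments 1 and 2 (adjusted p = 0.052). Hsd17b3, the testosterone-forming enzyme best known from the testis, fell further, from 58.7, 59, 14.9 and 19.6 CPM to 0.186, 0.446, 0.394 and 0.253 CPM (log2 fold change -6.86 ± 0.71, adjusted p = 0.00049). With limma voom it was -6.41 and not called (adjusted p = 0.11). Sult1e1, which inactivates estrogen by sulfation, had 811 counts over the Fshb(-/-) libraries and 2 over the rescue, a ratio of 385 in counts per library size (95% exact interval 106 to 3183, counting error only). Its log2 fold change was -8.25 ± 1.08 (adjusted p = 0.0011), and without rescue replicates 3 and 4 it was not called (adjusted p = 0.052). The remaining fall in the list was Hsd3b6, at -3.01, a gene chosen after its values were seen and a close copy of Hsd3b1. Star, which brings cholesterol into the mitochondrion, was not called, though DESeq2 called it (adjusted p = 0.0027). Its levels were 343, 238, 240 and 262 CPM in the Fshb(-/-) libraries but 273, 443, 3460 and 4243 CPM in the rescue, so that rescue replicates 1 and 2 sat near the Fshb(-/-) range and replicates 3 and 4 far above it (log2 fold change 2.96 ± 0.94, adjusted p = 0.052). Without replicates 1 and 2 the difference was 3.83 (adjusted p = 1.7e-05), and without replicates 3 and 4 it was 0.41 (adjusted p = 0.35). Both values only describe the pairs, which were defined by these data.

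Genes of the luteal cell rose together. Of 25 tested members, 18 were higher and 2 lower, with a median of 1.93. The list summed to 5169 to 6260 CPM in the Fshb(-/-) libraries, 12835 and 14881 CPM in rescue replicates 1 and 2, and 29708 and 34236 CPM in replicates 3 and 4. Without replicates 3 and 4, 16 members were still higher and 2 lower, with a median of 1.02. Ptgfr, the receptor through which prostaglandin F2 alpha ends luteal life, stood at 2.95, 0.621, 2.44 and 2.87 CPM in the Fshb(-/-) libraries and 232, 360, 1124 and 1424 CPM in the rescue (log2 fold change 8.48 ± 0.92, adjusted p = 0.00092). Sfrp4, a secreted WNT antagonist, rose from 11.1, 3.19, 12.4 and 10.6 CPM to 766, 1184, 2166 and 2807 CPM (log2 fold change 7.54 ± 0.69, adjusted p = 0.00038). Both genes were higher in all 4 rescue libraries, most in replicates 3 and 4. Akr1c18, which inactivates progesterone, showed the reverse order, with 150 and 211 CPM in replicates 1 and 2, 21.4 and 76.4 CPM in replicates 3 and 4, and 0 to 0.287 CPM in the Fshb(-/-) libraries (log2 fold change 9.35 ± 1.13, adjusted p = 0.0014). With limma voom it was not called (log2 fold change 9.25, adjusted p = 0.11). As one of several similar aldo-keto reductases it can share reads with them. Plin4, a lipid droplet coat protein, rose by 3.75 ± 0.26. Vcam1, an adhesion molecule, went against its list: it fell from 245, 263, 258 and 286 CPM to 51.4, 48.8, 43.9 and 37.9 CPM, with little spread within either group (log2 fold change -2.53 ± 0.10, adjusted p = 1.6e-06). The lowest log2 fold change in the list was -4.75, in another gene.

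Several of the 12 largest rises started from almost no reads. Wnt10b, a WNT ligand, stood at 0.153, 0.0414, 0.0842 and 0 CPM in the Fshb(-/-) libraries and 60.9, 104, 92.5 and 115 CPM in the rescue. All 4 rescue libraries were alike in it (log2 fold change 10.31 ± 0.40, adjusted p = 6.2e-06). Onecut2, a homeobox transcription factor, had 2 counts over the Fshb(-/-) libraries and 2020 over the rescue, a ratio of 1064 in counts per library size (95% exact interval 294 to 8795). Cldn18, a tight junction protein, had 1 count against 6487, a ratio of 6836 (interval 1227 to 270052). Its rescue levels ran from 7.18 and 15.9 CPM in replicates 1 and 2 to 131 and 168 CPM in replicates 3 and 4, and the call was lost without Fshb(-/-) replicate 2 (adjusted p = 0.074). Bpifb6, a lipid-binding protein family member, was at 0.886, 1.52, 71.5 and 102 CPM in the rescue and had 2 counts in the Fshb(-/-) libraries. Its call was lost without any single Fshb(-/-) library (adjusted p up to 0.072) but not without rescue replicates 3 and 4 (log2 fold change 5.42, adjusted p = 0.0013). Ces2a, a carboxylesterase with close copies, and Ssu2 followed the same order, with 2.94 and 4.06 against 32.9 and 41.4 CPM and with 4.06 and 9.54 against 50.8 and 57.8 CPM in the rescue pairs. Plekhg4 took the opposite order, with 47.8 and 66 CPM in replicates 1 and 2 and 7.94 and 9.86 CPM in replicates 3 and 4. With limma voom, Cldn18, Bpifb6, Ces2a, Ssu2 and Plekhg4 were not called (adjusted p = 0.15, 0.21, 0.051, 0.087 and 0.067). Tnfrsf9, the costimulatory receptor 4-1BB, rose in all 4, to 10.3, 17.1, 24.3 and 28.7 CPM (log2 fold change 6.84 ± 0.51, adjusted p = 6.1e-05).

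The promoters of 3 risen genes and 1 fallen gene, chosen after their values were seen, are shown as examples. They are Inhba as a hormone subunit and Wnt10b as a ligand with large rises, Cyp11a1 as the entry enzyme of steroid synthesis, and Svs5 as a seminal vesicle protein gene that fell. Each is the 250 bases before the gene start in RefSeq on GRCm38.p6, written 5′ to 3′ along the gene, with TGACG or its reverse complement CGTCA, the core of the cAMP response element, in capitals. The windows are chr13:16011601-16011850 (plus strand) for Inhba, chr15:98778151-98778400 (minus) for Wnt10b, chr9:57997774-57998023 (plus) for the first of the Cyp11a1 starts and chr2:164332515-164332764 (plus) for Svs5.
Inhba: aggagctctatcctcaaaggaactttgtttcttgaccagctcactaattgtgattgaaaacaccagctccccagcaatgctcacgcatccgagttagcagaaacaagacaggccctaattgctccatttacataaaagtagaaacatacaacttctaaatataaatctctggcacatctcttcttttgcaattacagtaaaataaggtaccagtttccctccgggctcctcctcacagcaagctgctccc
Wnt10b: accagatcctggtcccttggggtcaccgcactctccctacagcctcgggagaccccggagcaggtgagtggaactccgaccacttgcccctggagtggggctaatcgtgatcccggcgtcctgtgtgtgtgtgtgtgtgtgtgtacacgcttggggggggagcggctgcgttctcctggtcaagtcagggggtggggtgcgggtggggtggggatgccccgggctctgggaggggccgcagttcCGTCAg
Cyp11a1: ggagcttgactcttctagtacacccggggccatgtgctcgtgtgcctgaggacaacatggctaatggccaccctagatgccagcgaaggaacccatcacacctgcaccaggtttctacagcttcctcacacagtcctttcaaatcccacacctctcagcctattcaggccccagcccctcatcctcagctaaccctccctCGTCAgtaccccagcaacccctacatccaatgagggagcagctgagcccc
Svs5: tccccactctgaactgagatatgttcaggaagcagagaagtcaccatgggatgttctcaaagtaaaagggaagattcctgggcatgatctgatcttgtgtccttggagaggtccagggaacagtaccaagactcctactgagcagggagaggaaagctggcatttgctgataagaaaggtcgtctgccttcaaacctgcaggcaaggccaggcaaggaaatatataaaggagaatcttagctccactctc
These letters occurred once in the Wnt10b window and once in the Cyp11a1 window shown, and in neither of the others. A second Cyp11a1 promoter of the table (chr9:58014702-58014951, plus strand) held no match. Over all 32851 promoters of the table TGACG was present in 17.8%, and over those of the genes tested in 24.2%. It was present in 14.6% of the promoters of genes that were at least 2-fold higher and 16.6% of those at least 2-fold lower. AAGGTCA, the NR5A core, was present in 5.39% and 4.33% against 3.09% of the promoters of genes tested and 4.08% of all, and TGTGGT, the RUNX core, in 14.9% and 11% against 11% and 14%. The zinc finger motif AGATAA, bound by Gata4 and its relatives, was present in 8.94% and 9.15% against 6.24% and 9.99%, so that its share over all promoters was above that in both changed sets. All 4 motifs were sought on both strands, the full element TGACGTCA contains TGACG and is counted with it, and a match is a run of letters, not a measured site.

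Cholesterol synthesis genes split the rescue libraries. Its 26 genes summed to 1994 to 2332 CPM in the Fshb(-/-) libraries, 2203 and 2703 CPM in rescue replicates 1 and 2, and 10103 and 11719 CPM in replicates 3 and 4. In all 8 libraries 4 members were called higher and none lower, with a median of 1.33, while DESeq2 called 15 higher and none lower. Without replicates 1 and 2, 24 of 26 were called higher, and without replicates 3 and 4, 2 were higher and 4 lower, with a median of 0.05. Hsd17b7, an enzyme of both cholesterol and estradiol synthesis, stood at 50.6, 46.7, 47.3 and 47.0 CPM in the Fshb(-/-) libraries and 187, 340, 2294 and 2719 CPM in the rescue (log2 fold change 4.85 ± 0.98, adjusted p = 0.011). Scap, the escort of the SREBP transcription factors, rose by 0.98 ± 0.21 (adjusted p = 0.011). Ebp, a sterol isomerase of the pathway, was called (log2 fold change 0.85, adjusted p = 0.047), but the call was lost without any single Fshb(-/-) library or without rescue replicate 3 or 4 (adjusted p up to 0.12). Genes of lipid droplets and lipoprotein uptake were steadier: 10 of 19 tested were higher and none lower, with a median of 0.71, and 8 were higher and 1 lower without replicates 3 and 4.

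**Figure D3:**
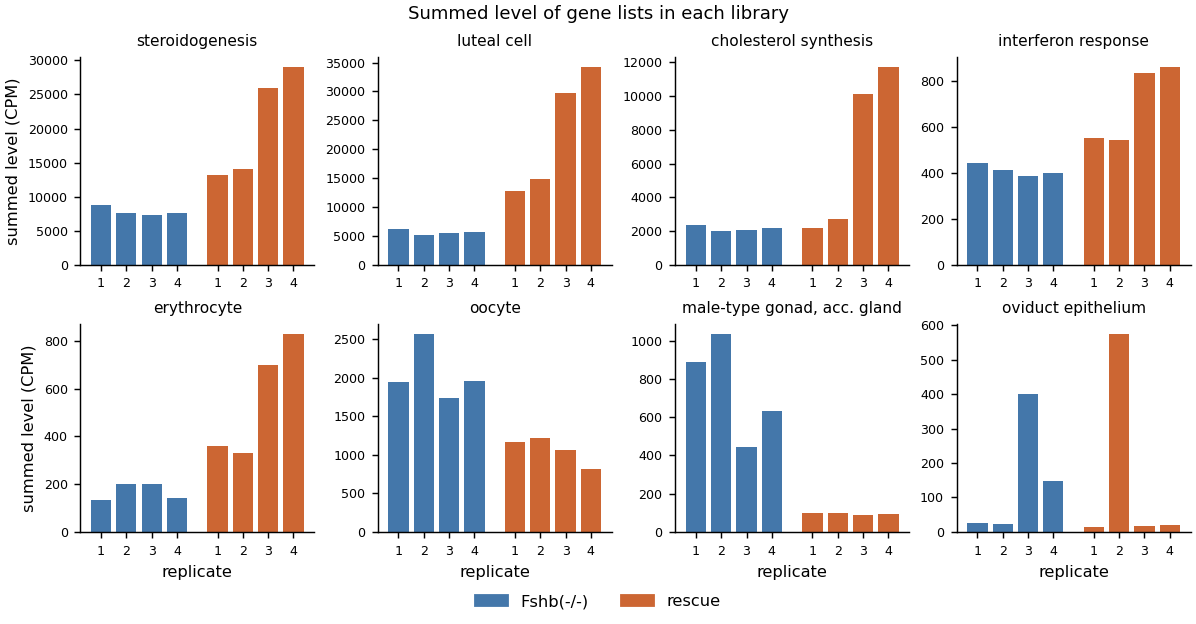
Summed level in CPM of 8 gene lists in each of the 4 Fshb(-/-) and 4 rescue libraries, with bars from 0. Steroidogenesis, luteal and cholesterol synthesis genes reach 25967 and 29038, 29708 and 34236, and 10103 and 11719 CPM in rescue replicates 3 and 4, while oviduct genes are high in Fshb(-/-) replicates 3 and 4 and rescue replicate 2.

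The LH receptor gene Lhcgr stood at 541, 289, 480 and 493 CPM in the Fshb(-/-) libraries and 623, 686, 1558 and 1714 CPM in the rescue. The groups did not overlap and the gene was called (log2 fold change 1.35 ± 0.40, adjusted p = 0.038), but the call was lost without any single Fshb(-/-) library or without rescue replicate 3 or 4 (adjusted p up to 0.096). Without both of these it was 0.54 (adjusted p = 0.24). Of 19 genes of gonadotropin receptors and cAMP signalling, 7 were higher and 5 lower, with a median of 0.07. Sgk1, a kinase induced by FSH in granulosa cells, rose from 29.5 to 33.5 CPM up to 137, 188, 419 and 490 CPM (log2 fold change 3.31 ± 0.44, adjusted p = 0.0017). Adcy7, an adenylate cyclase, fell by 1.36 ± 0.08, and Rgs2, which shortens G protein signalling, fell by 1.13 ± 0.13.

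Genes of the LH surge list changed in both directions, with 5 of 25 tested higher and 7 lower and a median of -0.07 (0.33 without rescue replicates 3 and 4). Their summed level, which weighs abundant members most, was 4146 to 4699 CPM in the Fshb(-/-) libraries. It was 6414, 6753, 12497 and 14337 CPM in the rescue. The mean log2 level of the members was 4.59 to 4.67 against 4.64 to 4.81. Pgr, the progesterone receptor of preovulatory granulosa cells, was not called (0.458 to 5.85 CPM against 3.39 to 10.8 CPM, log2 fold change 1.27, adjusted p = 0.25). Has2, which makes the hyaluronan of the expanding cumulus, fell from 8.09, 6.91, 8.42 and 7.85 CPM to 0.699, 0.446, 0.345 and 0.405 CPM (log2 fold change -4.02 ± 0.23, adjusted p = 9.1e-06). Ptgs2, the inducible cyclooxygenase, fell from 4.17 to 5.38 CPM down to 0.303 to 0.979 CPM (log2 fold change -2.90 ± 0.32, adjusted p = 0.00023). Nrip1, a nuclear receptor corepressor needed for ovulation, rose by 0.48 ± 0.06.

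Granulosa cell genes changed in both directions, 12 higher and 11 lower of 29 tested, with a median of 0.01, while 14 were higher and 8 lower without rescue replicates 3 and 4. Foxl2, the transcription factor that keeps granulosa identity, was chosen after its values were seen and was not called, with 3727 to 5011 counts in the Fshb(-/-) libraries and 3809 to 4111 in the rescue. Kctd14 fell by 0.45 ± 0.05. Grem1, a secreted BMP antagonist, rose from 1.58, 0.331, 0.715 and 1.58 CPM to 72.9, 76.6, 26.9 and 22.2 CPM (log2 fold change 5.6 ± 0.66, adjusted p = 0.00095). The other BMP antagonist named by rule, Chrdl1, fell by 1.23 ± 0.10, and the TGF-beta and BMP list held 7 higher and 10 lower of 32.

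Theca and interstitial genes fell more often than they rose, 12 lower and 5 higher of 21, with a median of -0.49. Insl3, the relaxin-family hormone of theca and Leydig cells, stood at 205, 337, 104 and 170 CPM in the Fshb(-/-) libraries and 3.50, 4.33, 2.81 and 1.72 CPM in the rescue. Even the lowest Fshb(-/-) library was far above the highest rescue library (log2 fold change -6.03 ± 0.48, adjusted p = 0.00018). Pdgfra, a receptor of stromal and theca precursor cells, fell from 741 to 832 CPM down to 180 to 252 CPM (log2 fold change -1.86 ± 0.10, adjusted p = 8.1e-06), whereas Pdgfrb, a marker of pericytes, rose by 0.80 ± 0.06. Tcf21, a mesenchymal transcription factor, fell by 1.08 ± 0.08. In the hedgehog pathway, by which granulosa cells signal to theca, 8 of 13 were lower and 1 higher. Its receptor and target Ptch1 fell from 413 to 450 CPM down to 203 to 281 CPM (log2 fold change -0.82 ± 0.09, adjusted p = 0.00023). Dhh, a hedgehog ligand, was the one that rose, by 0.49 ± 0.09.

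Genes named for the male-type gonad and accessory glands fell, 6 lower and 1 higher of 10 tested, with a median of -3.08 (-5.01 without rescue replicates 3 and 4). The list summed to 891, 1036, 447 and 634 CPM in the Fshb(-/-) libraries and 87.8 to 97.8 CPM in the rescue. Svs5 and Svs6, seminal vesicle proteins whose related genes can share reads, fell to a few CPM or less. Svs5 went from 211, 172, 105 and 119 CPM to 3.03, 2.45, 2.71 and 3.39 CPM (log2 fold change -5.71 ± 0.28, adjusted p = 1.6e-05), and Svs6 by -6.16 ± 0.62. Their relatives Svs2 and Svs4 had 0 and 1 counts in all. Ptgds, a prostaglandin D synthase of Sertoli cells among others, fell from 256, 309, 92.1 and 174 CPM to 4.75, 8.03, 14.8 and 23.1 CPM (log2 fold change -4.04 ± 0.62, adjusted p = 0.0036). Cldn11, a tight junction protein of Sertoli cells, fell by 2.11 ± 0.16, while Sox9, the Sertoli-determining factor, chosen after its values were seen, was not called (log2 fold change -0.03, adjusted p = 0.96).

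Among the other largest falls, Cyp21a1, the steroid 21-hydroxylase of the adrenal cortex, had 947 counts over the Fshb(-/-) libraries and 1 over the rescue, a ratio of 899 (95% exact interval 161 to 35531). Reads of its near-identical pseudogene may be assigned to it. Klk1b24, one of a cluster of kallikreins that resemble one another, had 949 counts against 3, a ratio of 300 (interval 102 to 1458). L3mbtl4, a chromatin reader, was alike within groups, at 13.5, 10.6, 10.8 and 12.9 CPM against 0.373, 0.223, 0.246 and 0.303 CPM (log2 fold change -5.35 ± 0.20, adjusted p = 1.6e-06). Lcn2, an iron-carrier binding protein of neutrophils and epithelium, ran from 82.8 to 284 CPM against 2.00, 19.2, 1.23 and 1.77 CPM (log2 fold change -4.89, adjusted p = 0.012), and was not called without rescue replicates 3 and 4 (adjusted p = 0.081). Ces1d fell by 4.49 ± 0.25 and the acute-phase serine protease inhibitor Serpina3n by 4.47 ± 0.48. Both have close copies.

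The renin-angiotensin system, which the ovary also runs locally, fell at its first steps, with 5 of 10 lower and 1 higher. Ren1, renin, stood at 28.5, 20.7, 43.4 and 39.4 CPM in the Fshb(-/-) libraries and 2.38, 1.87, 1.13 and 0.708 CPM in the rescue. Agt, the substrate of renin, fell from 504, 723, 492 and 562 CPM to 95.6, 90.2, 105 and 85.4 CPM. Both sets were clear of overlap (log2 fold changes -4.42 ± 0.39 and -2.60 ± 0.13, adjusted p = 0.00016 and 9e-06). Ace, the converting enzyme, fell by 1.82 ± 0.33 and the receptor Agtr1a by 1.46 ± 0.23, while the aminopeptidase Enpep rose by 0.75 ± 0.10.

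Oocyte genes were lower almost throughout: 34 of 36 tested were called lower and none higher, with a median of -0.90 and a range of -1.41 to -0.16. The list summed to 1735 to 2564 CPM in the Fshb(-/-) libraries and 817 to 1218 CPM in the rescue. Without rescue replicates 3 and 4, 24 were lower and none higher, with a median of -0.75. Gdf9, the oocyte's signal to granulosa cells, stood at 135, 178, 115 and 137 CPM in the Fshb(-/-) libraries and 84.0, 89.0, 79.1 and 59.7 CPM in the rescue (log2 fold change -0.86, adjusted p = 0.0052). Padi6, of the oocyte cytoplasmic lattice, fell by 1.28 ± 0.15 and the transcription factor Nobox by 1.09 ± 0.17. Kit, the receptor on the oocyte for Kit ligand that other ovarian cells also carry, fell from 146 to 204 CPM down to 59.8 to 79.8 CPM. Cell cycle genes were also lower, 26 of 37 with 1 higher, but by less, with a median of -0.38. Mcm2, Mcm5 and Mcm6, parts of the replicative helicase, fell by 0.43, 0.41 and 0.45, and Cdk6, a kinase of the G1 phase, by 0.36.

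**Figure D4:**
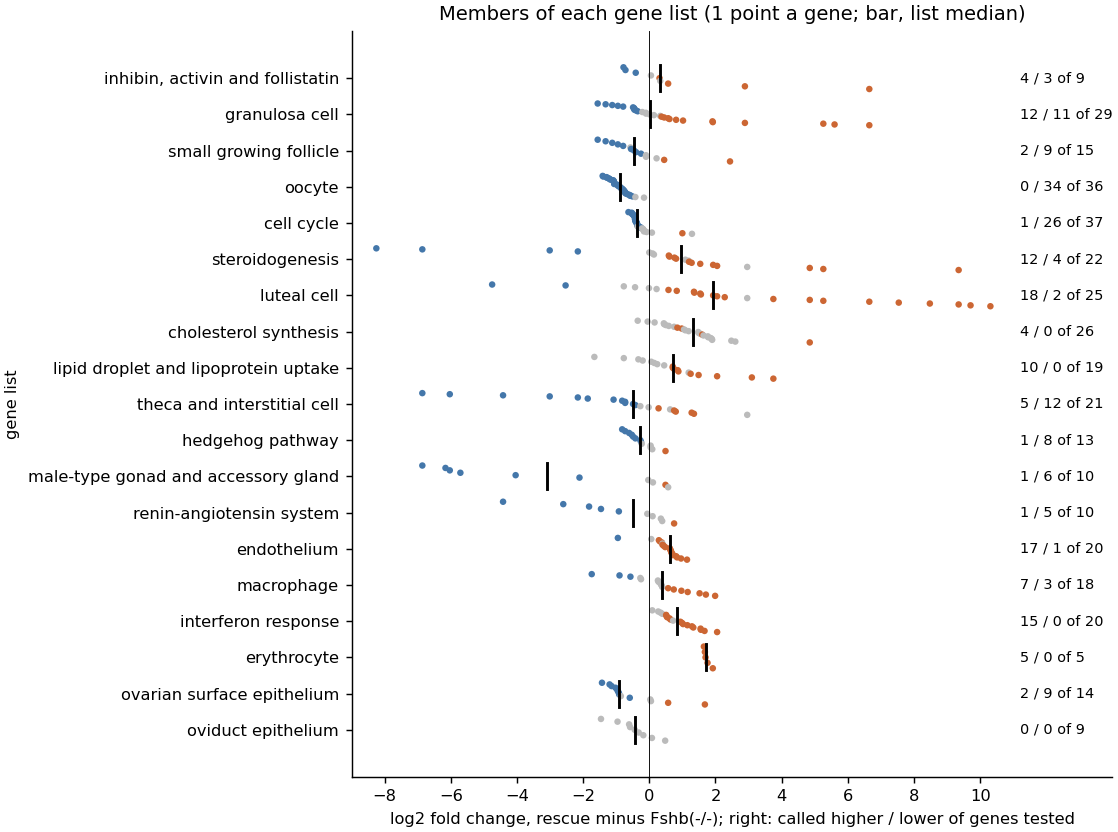
Log2 fold change (rescue minus Fshb(-/-)) of each tested member of 19 gene lists, 1 point a gene, with called genes in colour, list medians as bars and counts called higher and lower at the right. Luteal genes (18 of 25 higher), endothelium (17 of 20 higher) and oocyte genes (34 of 36 lower) lie mostly to one side of 0, and granulosa genes (12 higher, 11 lower of 29) lie on both.

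Vessel and blood genes were higher. Of 20 endothelial genes 17 were higher and 1 lower, with a median of 0.62, and 13 were higher and 1 lower, with a median of 0.40, without rescue replicates 3 and 4. Pecam1, a junction protein of endothelium, rose from 42.3 to 50 CPM up to 77.1, 85.1, 96.0 and 104 CPM (log2 fold change 0.96 ± 0.09, adjusted p = 0.00014). Vwf, the von Willebrand factor, was the one that fell, from 45.3 to 60.3 CPM down to 24.3 to 32.0 CPM (log2 fold change -0.95 ± 0.11). Among angiogenic factors, 8 higher and 4 lower of 20, Aplnr, the apelin receptor, rose by 1.39 ± 0.08 and the lymphatic growth factor Vegfc by 1.30 ± 0.11. All 5 erythrocyte genes were higher, with a median of 1.70 (1.03 without rescue replicates 3 and 4). Their summed level was 132 to 199 CPM in the Fshb(-/-) libraries, 361 and 330 CPM in rescue replicates 1 and 2, and 701 and 829 CPM in replicates 3 and 4. Globin genes have near-identical copies that share reads, and the part of blood content in the other changes was not tested.

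Interferon response genes rose, 15 of 20 higher and none lower, with a median of 0.83, and 11 were higher and none lower without rescue replicates 3 and 4. Ifit1, an antiviral RNA-binding protein, stood at 4.58, 4.72, 4.38 and 3.78 CPM in the Fshb(-/-) libraries and 8.58, 7.27, 12.1 and 10.8 CPM in the rescue (log2 fold change 1.15 ± 0.18, adjusted p = 0.0015). Irf7, the master regulator of the interferon response, rose by 0.99 ± 0.14, Oas2 by 1.67 ± 0.27 and Ifi44 by 2.05 ± 0.33. In experiment 1 none of the 20 was called between WT and Fshb(-/-), with a median of -0.01. The difference between the experiments was not called for any of these 4 genes (adjusted p = 0.18, 0.12, 0.072 and 0.18 in the order named).

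Macrophage genes were mixed, 7 higher and 3 lower of 18. Lyz2, lysozyme, stood at 65.9 to 99.8 CPM in the Fshb(-/-) libraries and 424, 250, 212 and 176 CPM in the rescue (log2 fold change 1.71 ± 0.29, adjusted p = 0.0042), and Ctss, a lysosomal protease of antigen-presenting cells, rose by 1.99 ± 0.27. Cd14, a co-receptor for lipopolysaccharide, fell by 0.90 ± 0.16. Of 13 lymphocyte genes only Ptprc was called, higher by 0.73 ± 0.15. Markers of the ovarian surface fell, 9 lower and 2 higher of 14, or 4 and 2 without rescue replicates 3 and 4. Upk3b, a mesothelial uroplakin, fell by 0.92 ± 0.12, while Lgr5, a WNT pathway receptor that marks stem-like surface cells, rose by 1.68 ± 0.18. None of 9 tested oviduct genes and none of 7 adipocyte genes was called.

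The genes with the smallest p followed neither direction alone. Among those higher in the rescue, Smoc2, a matrix protein that binds calcium, stood at 172, 179, 188 and 185 CPM against 416, 418, 407 and 393 CPM, a tight separation (log2 fold change 1.18 ± 0.04, adjusted p = 1.6e-06). Masp1, a protease of the complement lectin pathway, rose by 2.74 ± 0.12, the matrix proteoglycan Lum by 1.71 ± 0.08, the actin-associated protein Pdlim4 by 2.14 ± 0.10 and the membrane protein Tmem178 by 3.96 ± 0.20. Among those lower, Cp, the copper carrier ceruloplasmin, stood at 222, 188, 169 and 195 CPM against 48.3, 47.3, 47.1 and 51.0 CPM (log2 fold change -2.0 ± 0.08, adjusted p = 1.6e-06). Lamc3, a laminin chain, fell by 1.89 ± 0.08, the lactate dehydrogenase subunit Ldhb by 1.12 ± 0.05 and the nucleoside transporter Slc29a1 by 1.45 ± 0.07.

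The remaining gene lists are given together. Called members were mostly or only higher for hormone receptors, collagen and matrix, heat shock, smooth muscle and histones. Over all genes tested, 15.8% were higher and 16.2% lower, or 31.9% called. The share called was near that for EGF and FGF signalling (33.3%) and oxidant defence (36.4%). Among the lists of this paragraph it was highest for the IGF system (82.4%) and histones (66.7%). It was lowest for mitochondrially encoded genes (15.4%). Of WNT pathway genes 11 of 35 were higher and 7 lower, of the IGF system 8 and 6 of 17, of hormone receptors 8 and 2 of 19, of EGF and FGF signalling 1 and 6 of 21, and of gonadal transcription factors 4 and 5 of 16. Igfbp4, which binds IGF in follicles, rose by 0.86 ± 0.07, and Thrb, a thyroid hormone receptor, by 1.21 ± 0.13. Emx2, a homeobox gene of the early gonad, fell by 1.09 ± 0.10 and Hbegf, an EGF receptor ligand, by 0.99 ± 0.10. Apoptosis genes were 6 higher and 3 lower of 22, with Gadd45a, a stress-induced gene, higher by 1.52 ± 0.18. Matrix protease genes were 4 higher and 8 lower of 23, with Plau, urokinase, lower by 1.0 ± 0.10, and collagen and matrix genes 9 higher and 1 lower of 25. Oxidant defence held 5 higher and 3 lower of 22, with Srxn1, sulfiredoxin, higher by 1.49 ± 0.11. Heat shock held 6 higher and 1 lower of 12, with Hspe1, the mitochondrial chaperonin 10, higher by 0.67 ± 0.09. Of glycolysis and hypoxia genes 8 of 23 tested identifiers were higher and 4 lower, of smooth muscle 5 and 1 of 11, and of histones 4 and 0 of 6, none of which was called without rescue replicates 3 and 4. Circadian genes (1 higher, 3 lower of 19), immediate early genes (2 and 1 of 18) and mitochondrially encoded genes (2 and 0 of 13) were mostly not called, while DESeq2 called 3 and 5, 4 and 3, and 4 and 0 of them. Without rescue replicates 3 and 4, matrix protease genes were 8 higher and 7 lower, EGF and FGF genes 0 and 4, and immediate early genes 4 and 1.

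The rescue can be set beside the intact gene, since experiment 1 compared WT with Fshb(-/-) ovaries in libraries that experiment 2 does not share. There 1355 of 17223 genes tested were called (7.87%), 575 higher in WT (3.34%) and 780 lower (4.53%), with 3 libraries a group. With one library left out in turn the count was 456 to 1031, lowest without Fshb(-/-) replicate 1, and fitted without the Fshb(+/-) libraries it was 1873. Of 16316 genes tested in both experiments, 1120 were called in both, which is 21.0% of the rescue calls and 84.5% of the WT calls, and 1110 of these had the same sign. Among all rescue calls 93.6% had the same sign in the WT comparison, against 76.5% of all genes. The log2 fold changes correlated across genes at a Pearson r of 0.74 and a Spearman correlation of 0.70, as a description over genes, which are not independent replicates. Inhba was higher by 4.42 in WT (adjusted p = 0.00075), Cyp19a1 by 3.69 (adjusted p = 0.0031) and Inhbb by 3.22 (adjusted p = 0.0054). Insl3 was lower by a log2 fold change of -4.15 (adjusted p = 0.0093), Svs5 by -5.53 (adjusted p = 0.00078) and Amh by -1.88 (adjusted p = 0.0031). Oocyte genes were lower in WT in 23 of 36, with a median of -0.88. Luteal genes were higher in 9 of 25 and lower in 2, with a median of 1.69. The WT libraries were far apart in some genes, here in CPM of total counts. Ptgfr stood at 7.26, 542 and 558 CPM against 2.80 to 7.76 CPM in Fshb(-/-). Wnt10b stood at 1.54, 97.0 and 146 CPM against 0.425 to 1.06 CPM. Inhba did not show this, at 495, 661 and 1180 CPM against 30.5 to 41.5 CPM.

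**Figure D5:**
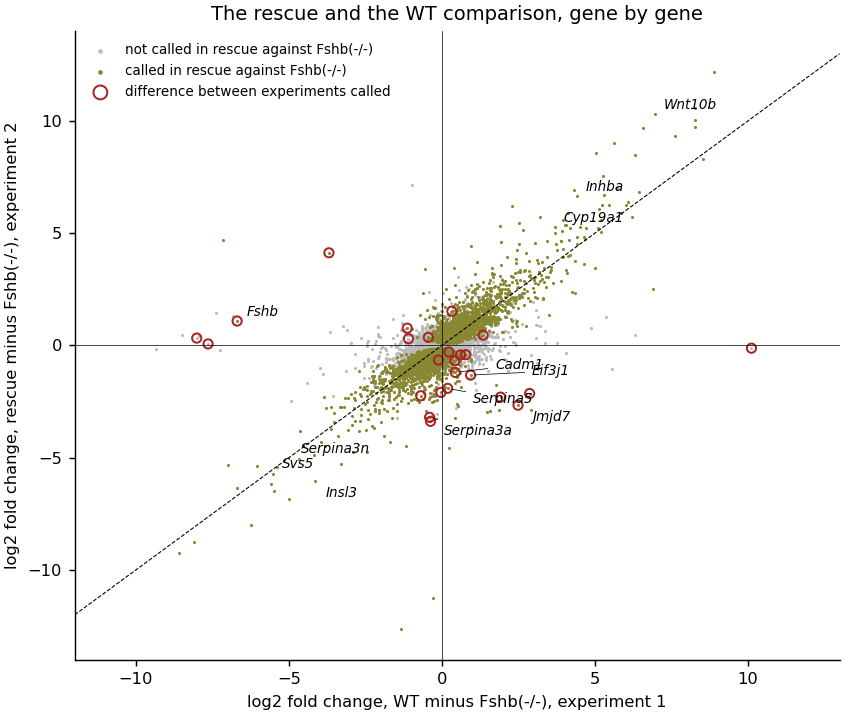
Log2 fold change of rescue minus Fshb(-/-) in experiment 2 against that of WT minus Fshb(-/-) in experiment 1, 1 point a gene tested in both, with genes called in the rescue coloured, genes with a called difference between the experiments circled and the line of equal change dashed. Most called genes lie in the quadrants of equal sign (1110 of the 1120 called in both), and the circled Fshb lies at 1.09 and -6.69.

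The difference between the 2 comparisons was itself tested over 18255 genes, and 28 were called (0.153%), 9 toward a higher value in the rescue comparison (0.0493%) and 19 toward a lower one (0.104%), while 1213 had an unadjusted p below 0.05. The count was 18 without Fshb(-/-) replicate 4 or rescue replicate 4 of experiment 2. Among the genes named by rule in the first set, Fshb differed by 7.81 ± 0.67 (adjusted p = 2.8e-05), with reads near 0 in WT and above 0 in every Fshb(-/-) library. Serpina5, the protein C inhibitor, stood at 619, 599, 561 and 647 CPM in the Fshb(-/-) libraries of experiment 2, 133 to 196 CPM in the rescue, and 49.9 to 204 CPM over the WT, Fshb(+/-) and Fshb(-/-) libraries of experiment 1. The outlying group was thus the Fshb(-/-) group of experiment 2 (difference -2.11, adjusted p = 0.041). Serpina3a, which has close copies, showed the same order with 18.4 to 23.3 CPM there against 1.63 to 12.1 CPM in the other groups (difference -2.81, adjusted p = 0.028). Cadm1, a cell adhesion molecule, was at 43.5 to 67.3 CPM there, 20.2 to 26.7 CPM in the rescue and 14.2 to 32.6 CPM over the 3 genotypes of experiment 1 (difference -1.64, adjusted p = 0.019). Atp1b1, a sodium pump subunit, differed by -0.54 (adjusted p = 0.023) and Ppp1r13b, an apoptosis-stimulating p53 partner, by -0.53 (adjusted p = 0.05, below the threshold before rounding).

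Eif3j1, a translation initiation subunit with the near copy Eif3j2, took opposite signs. It was at 42.4, 46.1, 46.4 and 46.8 CPM in the Fshb(-/-) libraries of experiment 2 and 15.8 to 20.6 CPM in the rescue, but at 17 to 19.2 CPM in the Fshb(-/-) libraries of experiment 1 and 29.0 to 42.0 CPM in WT. The Fshb(-/-) groups of the 2 experiments thus lay on opposite sides (difference -2.27 ± 0.17, adjusted p = 7.4e-06), and Eif3j2 differed by 0.80 (adjusted p = 0.011). Jmjd7 and Pla2g4b, chosen after their values were seen, repeated this with differences of -5.16 and -4.23. Eif3j1, Jmjd7 and Pla2g4b lie on chromosome 2, as does Fshb. Of the 28 called differences, 10 lay on chromosome 2 and 8 within 15 Mb of Fshb, with Fshb counted in both. In the rescue comparison this window held 185 of the 16871 genes tested. What the groups carry beside the named alleles was not tested.

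Levels in the cycling WT libraries of the stage experiment (4 each titled DE, PE and E) are given beside the rescue under their labels, which the Fshb reads above do not follow. They are CPM of total counts and are given without a test, since these libraries belong to another experiment. Inhba had medians of 474, 519 and 267 CPM in these stages, 1130 CPM in the rescue and 9.76 CPM in the Fshb(-/-) group. Cyp19a1 had medians of 17.4, 24.7 and 10.9 CPM against 83.2 CPM in the rescue, and Insl3 of 2.41, 2.58 and 0.952 CPM against 3.14 CPM. Wnt10b had medians of 86.4, 34.8 and 72.6 CPM against 97.9 CPM. For all 4 genes the rescue range overlapped the range over the 3 stages. The Fshb(-/-) range lay outside it for Inhba, Insl3 and Wnt10b, whereas for Cyp19a1 the highest Fshb(-/-) library, at 4.02 CPM, was above the lowest E library, at 3.81 CPM.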

How the data were processed

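Gene-level expected counts estimated by Salmon are what the authors deposited, in 1 table of 54347 gene identifiers and 33 libraries. The submitters' processing notes name Salmon, DESeq2 and GRCm38, with no versions. Strand and library kit of experiments 1 and 2 are not stated in the labels. Between 13.3% and 14.0% of the values of experiment 2 were not whole, and all were rounded. Symbols were matched for all but 253 identifiers.

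Libraries were grouped by title and genotype. Each comparison was fitted with edgeR 4.0.16 (R 4.3.3): filterByExpr, TMM factors and the robust quasi-likelihood test. The p-values were adjusted by Benjamini-Hochberg over all genes tested, at a threshold of 0.05. The rescue fit used its 8 libraries, and the difference between experiments was a contrast in 1 fit. Standard errors are the absolute log2 fold change over the square root of F. The alternatives were DESeq2 1.42.0, limma 3.58.1 (voom with quality weights), other scaling and filters, a replicate block and left-out libraries. On simulated counts of 16592 genes in the rescue design, 67.9% of 2-fold and 96.6% of 4-fold changed genes were recovered, with 10 false among 169 calls. Only 109 and 88 genes were changed there, and libraries were drawn independently, without the pairs seen in the rescue. In the data 31.9% of genes were called, so these rates need not hold for them. Depth limits precision to counting error only where exact 95% binomial intervals are given. Tables and figures used Python 3.11.15, pandas 2.3.3, scipy 1.17.1 and matplotlib 3.10.9.

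Named genes were a panel of FSH-axis genes, the 12 largest changes and 6 smallest p in each direction (called, mean of at least 5 CPM, no overlap, no predicted model or pseudogene), up to 5 of smallest p in each of 44 gene lists, and the 4 highest and 4 lowest differences between experiments. Of these 4 highest, Atp1b1 (-0.54) and Ppp1r13b (-0.53) were below 0. Larger called differences, such as Fabp3 (-1.56) and Amd2 (7.82), were outside the rule. Members and lists were chosen with earlier results of these data known.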

Additional observations from a re-analysis of the deposited data

Results flagged for a closer look

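Among 260 groups of 4 libraries, 18 held a library far from the other 3 by Dixon's test, where chance gives about 1 in 20. In the rescue the highest library stood apart for Adipoq (3.73 CPM), Ovgp1 (419 CPM), Lcn2 (19.2 CPM), Pgr (10.8 CPM), Sox9 (7.89 CPM), Svs6 (0.607 CPM), Sult1e1 (0.101 CPM), Gm8210 (0.0493 CPM) and Cyp21a1 (0.0466 CPM), and the lowest for Eif3j2 (98.8 CPM) and Kit (59.8 CPM). Ovgp1, Lcn2, Pgr and Sox9 were highest in the same library, rescue replicate 2, which carried the oviduct signal described above. In the Fshb(-/-) group the highest library stood apart for Slc29a1 (291 CPM), Hsd17b7 (50.6 CPM), Ptprc (15.6 CPM), Oas2 (2.94 CPM), Onecut2 (0.102 CPM) and Cldn18 (0.0414 CPM), and the lowest for Mcm2 (64 CPM). Gm8210, Cyp21a1 and Cldn18 had 1 count in the whole group concerned, and Sult1e1 and Onecut2 had 2. Reads this few set a library apart by construction, so the rate of 1 in 20 does not apply to these 5 genes.

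The change from Fshb(-/-) differed between the rescue and WT, by the test of the difference itself, for 8 genes named by rule. The differences in log2 fold change were 7.81 for Fshb, 0.80 for Eif3j2, -2.81 for Serpina3a, -2.27 for Eif3j1, -2.11 for Serpina5, -1.64 for Cadm1, -0.54 for Atp1b1 and -0.53 for Ppp1r13b.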

How the results depend on the processing

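The 5390 calls of the rescue comparison became 5956 with DESeq2, 5286 with limma voom, 5395 with median-of-ratios factors, 4713 with no filter, 5271 above a mean of 1 CPM, 3921 with the spread shared by experiments 1 and 2, and 3935 to 5613 with one library left out. Of 2210 gene and setting pairs for 130 named genes, 2146 kept direction and side of the threshold, 41 lost the call, 11 gained it and 12 changed sign. Beyond the losses named above, calls were lost with the shared spread for Acvr2b, Cdk6, Igf1r, Nrip1, Rpsa and Ebp (adjusted p = 0.11, 0.079, 0.068, 0.072, 0.6 and 0.08), with no filter for Bpifb6, Lhcgr and Ebp (0.056, 0.096 and 0.13) and with limma voom for Ebp (0.052). The sign changes were in genes that were not called: Ovgp1 (-1.11 with limma voom, -2.28 with the replicate block, -4.52 to 1.54 with one library left out, -4.30 without replicates 1 and 2), Adipoq (0.63 with limma voom), Fshr (-0.26 to 0.07 with one library left out, 0.23 without rescue replicates 3 and 4) and Sox9 (-0.48 to 0.19 with one library left out, 0.32 without rescue replicates 3 and 4).

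WT against Fshb(-/-) gave 2419 calls (1156 higher, 1263 lower) with DESeq2, 3545 (1518 and 2027) with limma voom, and 456 to 1031 (159 to 487 higher, 283 to 544 lower) with one library left out. The difference between experiments gave 134 calls (42 and 92) with DESeq2, 66 (21 and 45) with limma voom and 18 to 30 (6 to 17 higher, 10 to 18 lower) with one library left out. It gave 14 higher and 12 lower without rescue replicates 3 and 4, and 14 higher without 1 and 2. The cause was not tested.

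Replicate numbers did not pair the libraries: same-numbered deviations correlated at 0.11, -0.18, -0.16 and 0.02. With the replicate block the rescue comparison gave 4313 calls (2067 higher, 2246 lower) and the WT comparison 911 (383 higher, 528 lower). Under it the calls of Fshb and Ebp were lost (adjusted p = 0.051 and 0.094). Groups of 3 or 4 libraries limit all of these counts.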

Other observations

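Both of the following genes were chosen after their values were seen. Gm8210, a processed pseudogene, stood at 109, 114, 110 and 122 CPM in the Fshb(-/-) libraries and had 1 count in the 4 rescue libraries together (log2 fold change -12.65 ± 0.21, adjusted p = 3.5e-09, a count ratio of 9527 with a 95% exact interval of 1710 to 376346). Rpsa-ps10, a processed pseudogene of the ribosomal protein gene Rpsa, stood at 286, 307, 300 and 321 CPM against 0.28, 0.0892, 0.0986 and 0 CPM (log2 fold change -11.25 ± 0.26, adjusted p = 3.1e-07). Rpsa itself was at 770, 787, 763 and 790 CPM against 1057, 995, 860 and 909 CPM. Reads can be split between a gene and its pseudogenes, and their part in these values was not tested. In the WT comparison of experiment 1 Gm8210 had a log2 fold change of -1.33 (adjusted p = 0.53).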
